A study of Mus musculus with 4 samples.

Results

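Pericytes, the mural cells of brain capillaries, were examined in droplet-based single-cell RNA sequencing of the whole mouse brain. They were chosen by the measured UMIs (tags that mark single RNA molecules) of 17 genes. A barcode was kept with at least 3 of 6 pericyte genes detected (Kcnj8, Abcc9, Vtn, Rgs5, Higd1b and Atp13a5), at most 1 of 4 smooth muscle genes (Acta2, Tagln, Myh11 and Tpm2), at most 2 of 4 endothelial genes (Cldn5, Flt1, Pecam1 and Cdh5) and at most 1 of 3 glial genes (Mog, Aqp4 and Tmem119). Detected means at least 1 UMI. The rule found 150 pericytes among 10067 cells with at least 400 detected genes and at most 20% mitochondrial UMIs.

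Each library came from the brain of a different male C57BL/6J mouse aged 90 postnatal days, 4 in all, and every brain was dissociated with enzymes at a warm temperature. In 2 animals no inhibitors were used. In the other 2 animals actinomycin D and triptolide, which block transcription, were present from perfusion through digestion, and anisomycin, which blocks translation, was present during dissection and digestion. According to the labels the libraries share a batch, and neither a transgene nor a sort was used to enrich vascular cells. The groups are called without and with inhibitors, and the comparison asks which transcripts in pericytes depended on blocking new synthesis during tissue preparation.

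Pericytes lie within the capillary basement membrane and wrap the endothelial tube, to which they are recruited by platelet-derived growth factor signalling through the receptor Pdgfrb. They help to maintain the blood-brain barrier, and through ATP-sensitive potassium channels built from Kcnj8 and Abcc9 they sense the metabolic state of the tissue. Unlike smooth muscle cells of arterioles they carry little Acta2. Immediate early genes, such as Fos, Jun and Egr1, are transcribed within minutes of a stimulus from factors already present in the cell, so that warm dissociation itself can switch them on.

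The libraries without inhibitors held 28 and 43 pericytes, and those with inhibitors held 35 and 44. Their summed UMIs were 33541 and 50569 without and 44322 and 52730 with inhibitors, out of 5134359 to 7529804 UMIs per library. The median pericyte held 1000.5, 1055, 1051 and 997.5 UMIs in the 4 libraries in that order, which was below the median of endothelial cells (1843 to 2193 UMIs) and microglia (1282.5 to 1498 UMIs). Median mitochondrial shares ran from 6.15% to 7.21%. No pericyte barcode was shared between libraries as a pericyte. Any pair of libraries shared 9 to 13 barcodes of any kind, or 0.345% to 0.458% of the smaller library. Every pair of pericyte sums differed by more than the sampling noise of independent UMIs (chi-square per degree of freedom 1.64 to 2.60). UMIs cluster within cells, so this does not show that the libraries are separate samples. The 4 libraries were counted as separate samples because each came from a different animal.

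The genes that chose the cells give a description and no finding. Vtn, which encodes the matrix protein vitronectin, was the most abundant of the 6 at 13997 ± 2601 CPM (counts scaled to a common total of the pericyte sum, SD, n = 4). It was detected in 96.0% of pericytes. Rgs5, a regulator of G protein signalling, stood at 5152 ± 560 CPM in 98.0% of cells, and Higd1b at 2599 ± 499 CPM in 87.3%. The transporter gene Atp13a5 (1485 ± 438 CPM, 72.7%) and the channel subunits Kcnj8 (1234 ± 203 CPM, 59.3%) and Abcc9 (830 ± 113 CPM, 53.3%) were detected in fewer cells. All 6 genes were detected in 39 cells, 5 in 46, 4 in 41 and 3 in 24. No smooth muscle gene was detected in 118 cells, and Tagln had no UMI in any pericyte. No endothelial gene was detected in 116 cells, 1 in 18 and 2 in 16.

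Genes outside the rule were compared with the label. Pdgfrb had a UMI in 78.0% of pericytes, against 52.3% of 44 smooth muscle cells, 1.69% of 1300 endothelial cells and 0.274% of 3281 microglia, which were picked by their own marker genes. Whether free RNA or mixed barcodes gave the last of these shares was not tested. The choice of microglia also limited the pericyte genes of the rule. Pdgfrb stood at 1282, 1424, 1286 and 1328 CPM in the pericytes of the 4 libraries, so that its level was nearly the same in both groups. Ndufa4l2 and Cox4i2, which encode mitochondrial subunits of hypoxic tissues, were detected in 80.7% and 62.7% of pericytes, against 54.5% and 40.9% of smooth muscle cells and 2.08% and 1.23% of endothelial cells. P2ry14, a receptor for UDP-sugars, was detected in 54.7% of pericytes, 18.2% of smooth muscle cells and 0.385% of endothelial cells. Anpep, the aminopeptidase CD13, was detected in 19.3% of pericytes, 2.27% of smooth muscle cells and 0.308% of endothelial cells.

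Some genes often used for pericytes did not separate them from the neighbouring classes. Notch3, a receptor of mural cells, was detected in 35.3% of pericytes but 68.2% of smooth muscle cells, and Cspg4, the proteoglycan NG2, in 22.7% against 43.2%. Smooth muscle cells were sequenced more deeply per cell (medians of 1954.5 to 2594.5 UMIs), and the CPM levels were 391 against 596 CPM for Notch3 and 216 against 281 CPM for Cspg4. Foxf2, a transcription factor of brain mural cells, was detected in 12.7% of pericytes and 42.3% of endothelial cells, at 129 and 242 CPM. Since the same cells and their genes defined the classes, these differences were not tested.

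**Figure D1:**
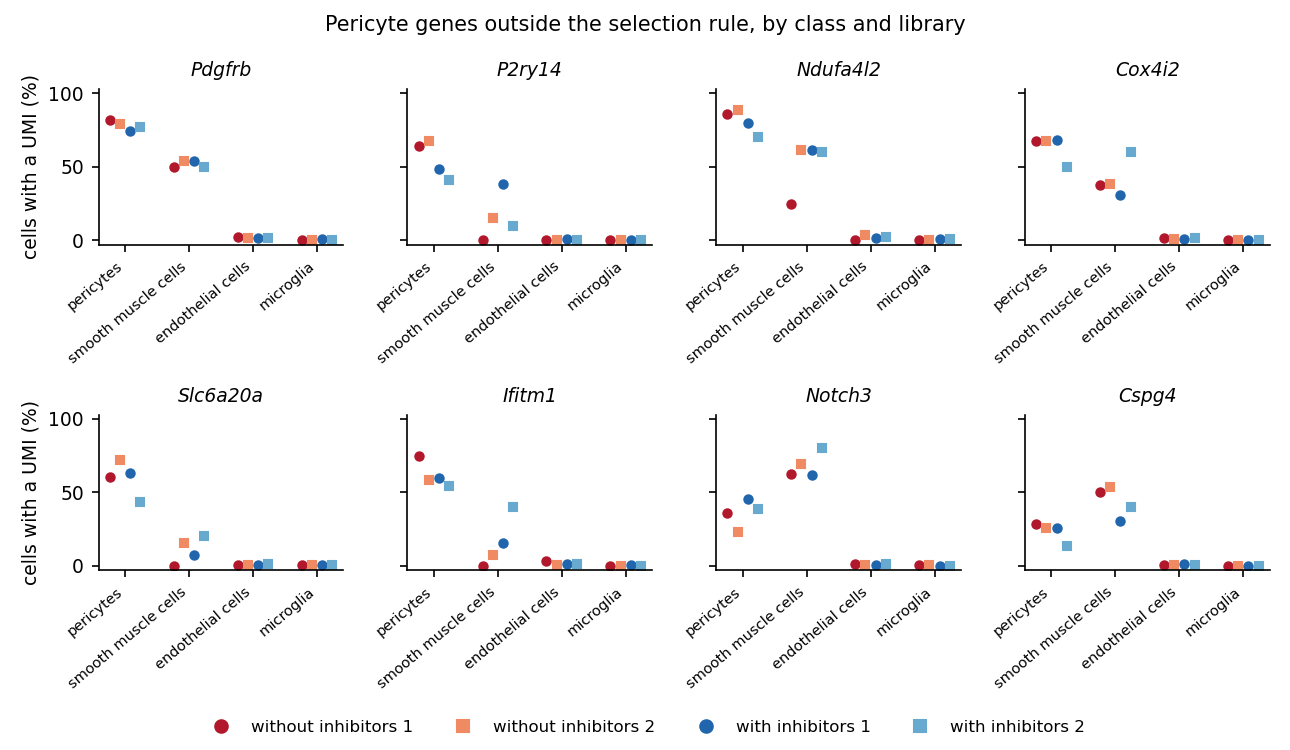
Percent of cells with at least 1 UMI of 8 genes outside the rule (y axis), in pericytes, smooth muscle cells, endothelial cells and microglia (x axis), with a point for each of the 4 libraries. Pdgfrb was found in 74.3% to 82.1% of the pericytes of each library and in few endothelial cells or microglia, while Notch3 and Cspg4 were found in a larger share of smooth muscle cells than of pericytes in every library.

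A further 44 barcodes met every other limit but held exactly 2 of the 6 pericyte genes, 8 and 9 without and 11 and 16 with inhibitors. Their Vtn level was 391 CPM and their Rgs5 level 600 CPM, which the rule itself keeps low. Outside the rule, Pdgfrb was detected in 11.4% of them, and Cspg4 and Anpep had 0 UMIs. The 24 pericytes with 3 genes lay just inside.

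Genes outside the rule and the lists were ranked by the ratio of mean CPM in pericytes over endothelial cells, among 839 genes of at least 100 CPM in every pericyte sum. The ratios rest on very few endothelial UMIs and are a description. Nts, the neurotensin precursor, led with 119, 138, 180 and 493 CPM in the 4 libraries and 45 UMIs in all, so that the highest library held over 2 times the level of any other. Slc6a13, a GABA and taurine transporter, stood at 200 ± 131 CPM (SD, n = 4), and Art3, an ADP-ribosyltransferase family member, at 778 ± 115 CPM against 1.34 CPM in endothelial cells. Gucy1a1, a subunit of the nitric oxide receptor, stood at 356 CPM in smooth muscle cells and 250 ± 97.7 CPM in pericytes. Il34, a ligand of the microglial receptor Csf1r, stood at 331 ± 61.8 CPM. The glutathione-cleaving enzymes Ggt1 (262 ± 106 CPM) and Ggt5 (427 ± 139 CPM), the phospholipase Pla1a (386 ± 83.7 CPM) and the extracellular superoxide dismutase Sod3 (1160 ± 387 CPM) followed. Ggt1 and Pla1a had no UMI in smooth muscle cells.

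RNA of other cells was present among the pericyte barcodes and was unevenly spread over libraries. Ttr, which the choroid plexus makes in very large amounts, had a UMI in 94.7% of pericytes, 97.5% of microglia and 98.2% of endothelial cells. With every cell thinned to 500 UMIs, it had a UMI in 60.0% to 81.4% of pericytes, 60.6% to 84.4% of microglia, 47.0% to 75.1% of endothelial cells and 38.5% to 76.9% of smooth muscle cells over the 4 libraries. All 10 microglial markers had UMIs in pericytes, and they summed to 298 and 672 CPM without and 429 and 4324 CPM with inhibitors. In the second library with inhibitors, 208 of its 228 microglial UMIs lay in 4 barcodes, and the remaining pericytes stood at 387 CPM. The 10 endothelial markers summed to 3965 and 3164 CPM without and 4309 and 6865 CPM with inhibitors. The 8 oligodendrocyte markers summed to 2981 and 4153 CPM without and 970 and 1840 CPM with inhibitors, and 174 of the 210 UMIs in the second library without inhibitors came from 1 barcode. Of 8 fibroblast markers Lum, Col1a1 and Slc47a1 were at 0, and the other 5 summed to 10 and 13 UMIs without and 8 and 5 with inhibitors. Of 8 further smooth muscle markers Cnn1, Myocd and Pln were at 0, and the other 5 summed to 388 and 494 CPM without and 180 and 266 CPM with inhibitors.

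A mixed barcode was defined, after these values were seen, as a pericyte with at least 15 UMIs of the marker list of 1 other cell type. There were 25 of them, 4 and 3 without and 5 and 13 with inhibitors, with more in the second library with inhibitors than in any other. Their median depth was 1787 UMIs against 984 UMIs in the other 125 pericytes, and they held all 6 pericytes that a doublet score marked. Results were therefore also computed without them. Leaving them out lowers the genes of these marker lists by construction.

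**Figure D2:**
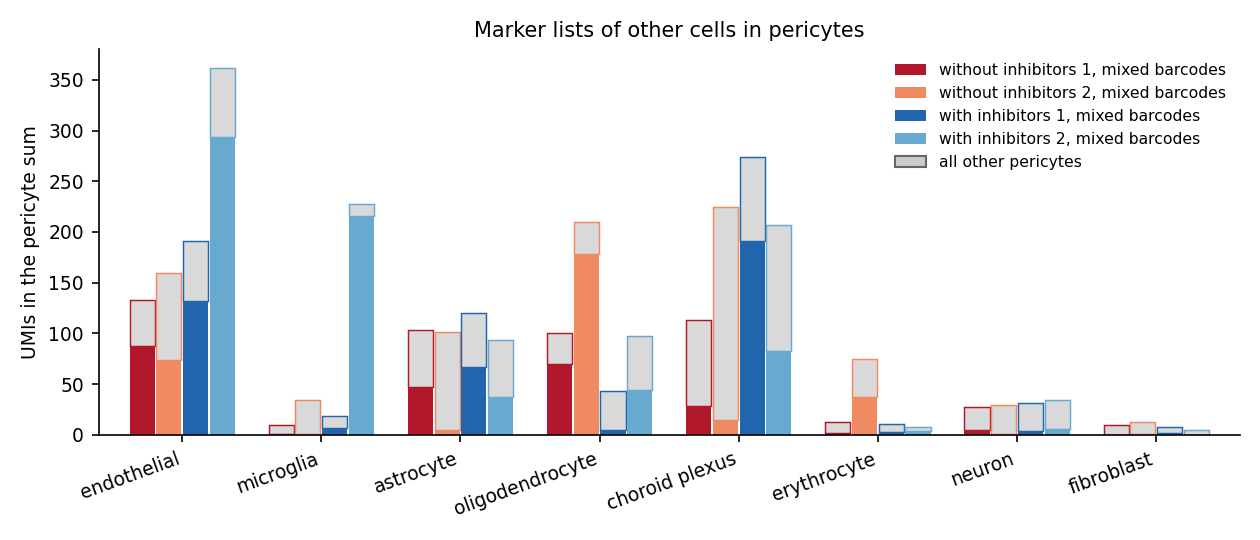
Summed UMIs of the marker genes of 8 other cell types in the pericytes of each library, with 1 bar per library split into mixed barcodes (filled) and all other pericytes (grey). Of the 228 microglial UMIs in the second library with inhibitors and the 210 oligodendrocyte UMIs in the second library without, the larger part lay in mixed barcodes.

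Pericytes made up 1.25% (95% Wilson interval 0.864 to 1.80) and 1.53% (1.13 to 2.05) of passing cells without inhibitors. With inhibitors they made up 1.65% (1.19 to 2.28) and 1.53% (1.14 to 2.05). The intervals cover counting error only, and they all overlapped. The group means were 1.39% ± 0.197 and 1.59% ± 0.0828 (SD, n = 2 animals each), a difference of -0.203 percentage points (exact two-sided permutation p = 0.33, the smallest p that 2 against 2 animals allow). Without the mixed barcodes the means were 1.24% ± 0.248 and 1.24% ± 0.236, and the difference of -0.203 points fell to -0.0013 points (exact permutation p = 1). A change in the recovery of pericytes was thus not detectable in this design.

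The inhibitor comparison tested 748 genes on the pericyte sums of each animal with edgeR's quasi-likelihood test. Fold changes are given as log2 of the level without over the level with inhibitors, with their SE. A call needed a Benjamini-Hochberg adjusted p under 0.05 and a log2 fold change over 0.58 in size. No gene was called higher (0%) and no gene was called lower (0%). At an unadjusted p under 0.05 there were 46 genes (6.15% of those tested), and DESeq2 called 0 genes with 10 at that unadjusted p. With 2 libraries per group, the groups did not overlap in CPM for 33.4% of the genes tested, and the non-overlap of a gene below is to be read against that share. The libraries are separate animals, 2 per group, and the median log2 fold change over all genes tested was 0.01. Genes were too sparse to be tested where they had few UMIs, since 11305 genes had a UMI in a pericyte but 748 passed the filter on low counts.

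Among receptors and signalling proteins, 9 of 15 genes could be tested and 0 were called, with a median log2 fold change of 0.28 that turned to -0.06 without the mixed barcodes. Pdgfrb had a log2 fold change of 0.04 ± 0.27 (SE), and the signalling regulators Rgs4 and Gng11 of -0.22 ± 0.28 and 0.28 ± 0.28. P2ry14 stood at 1401 and 1463 CPM without and 970 and 626 CPM with inhibitors. Both libraries without inhibitors lay above both others, and the log2 fold change of P2ry14 was 0.84 ± 0.29 (edgeR, unadjusted p = 0.0067, adjusted p = 0.480). The share of pericytes with a P2ry14 UMI was 64.3% and 67.4% without and 48.6% and 40.9% with inhibitors.

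Of the transporters and channels, 6 of 10 were tested and 0 were called, with a median of 0.27. Slc6a20a, a proline transporter, stood at 1193 and 1740 CPM without and 948 and 645 CPM with inhibitors, so that the groups did not overlap (log2 fold change 0.90 ± 0.30, edgeR adjusted p = 0.480). The folate carrier Slc19a1 had a log2 fold change of 0.17 ± 0.31. The glutamate transporter Slc1a3, which astrocytes express in large amounts, went the other way with 8 and 6 UMIs without and 25 and 13 UMIs with inhibitors (-1.24 ± 0.47, edgeR adjusted p = 0.604), and 12 of those UMIs lay in 1 barcode. Whether RNA of astrocytes had a part in this was not tested.

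Matrix and basement membrane genes gave 8 of 18 tested, 0 called and a median of 0.27. The calcium-binding matrix proteins Sparcl1 and Sparc and the bridging protein Mfge8 led in level, with log2 fold changes of 0.15 ± 0.27, 0.05 ± 0.27 and 0.22 ± 0.27. The list of mitochondrial and hypoxia genes gave 3 of 6 tested and 0 called, with a median of 0.26. Ndufa4l2 stood at 2653 and 1879 CPM without and 2008 and 1403 CPM with inhibitors, with overlapping groups. Cox4i2 and Epas1, a hypoxia-inducible factor, had log2 fold changes of 0.26 ± 0.31 and -0.25 ± 0.35.

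In the contractile and cytoskeletal list, 8 of 12 genes were tested and 0 were called (median -0.04), but single members lay on both sides. Actb, cytoplasmic actin, stood at 5128 and 5438 CPM without and 10627 and 7681 CPM with inhibitors. The groups did not overlap, and its log2 fold change was -0.80 ± 0.27 (edgeR adjusted p = 0.480). Tmsb10, a small actin-binding peptide outside the lists, had the lowest p of all genes tested and stood at 656 and 534 CPM without and 1263 and 1271 CPM with inhibitors (-1.13 ± 0.30, edgeR adjusted p = 0.40). Myl9, the regulatory light chain of myosin, stood at 3309 and 2630 CPM without and 2008 and 1555 CPM with inhibitors (0.72 ± 0.28, edgeR adjusted p = 0.604), and Cald1, caldesmon, had a log2 fold change of 0.05 ± 0.28. Without the mixed barcodes the log2 fold changes were -0.86 for Actb and 0.53 for Myl9, and 0 genes were called. Actb passed the threshold as lower when the second library with inhibitors was left out, and Tmsb10 when the first was.

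Transcription factors gave 4 of 12 tested, 0 called and a median of -0.44. Ebf1, a factor of mural and stromal cells, stood at 328 and 376 CPM without and 699 and 550 CPM with inhibitors (-0.82 ± 0.36, edgeR adjusted p = 0.751), and at -0.97 without the mixed barcodes. Nr2f2 and Zic1 had log2 fold changes of 0.27 ± 0.37 and -0.37 ± 0.39. Foxf2 was too sparse to be tested with 5 and 4 UMIs without and 6 and 8 UMIs with inhibitors. Among components and targets of Notch signalling 3 of 8 were tested and 0 called (median 0.38), with Notch3 at -0.34 ± 0.37, its target Hes1 at 0.62 ± 0.38 and Notch1 at 0.38 ± 0.45.

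Outside the lists, Gnb1, a G protein beta subunit, stood at 447 and 356 CPM without and 835 and 834 CPM with inhibitors (-1.09 ± 0.33, edgeR adjusted p = 0.461). Sod3, among the genes named above for its level, stood at 1640 and 1305 CPM without and 880 and 815 CPM with inhibitors (0.76 ± 0.28, edgeR adjusted p = 0.554). The membrane carbonic anhydrase Car4 stood at 1610 and 1859 CPM without and 948 and 1062 CPM with inhibitors (0.77 ± 0.28, edgeR adjusted p = 0.552). All were chosen for mention by their low unadjusted p after the values were seen, and none of them passed the test.

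Several low p-values fell on genes of other cells. Bsg, a glycoprotein of the endothelial list, stood at 1342 and 1582 CPM without and 2504 and 2845 CPM with inhibitors (-0.88 ± 0.28), and at -0.03 ± 0.31 without the mixed barcodes. The 3 oligodendrocyte markers tested had a median of 1.58, and the 1 that could be tested without the mixed barcodes stood at -0.88. Mixed barcodes were defined by UMIs of these same lists. The loss or turn of these effects was therefore largely set by the definition and is no separate evidence. Mobp, a myelin protein, had 16, 21, 5 and 9 UMIs in the 4 libraries with 18 in 1 barcode (1.58 ± 0.44). It was too sparse to be tested without the mixed barcodes. The chaperone Cryab had 11, 44, 17 and 13 UMIs, 36 of them in 1 barcode, and its log2 fold change of 1.00 turned to -0.73 without the mixed barcodes.

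**Figure D3:**
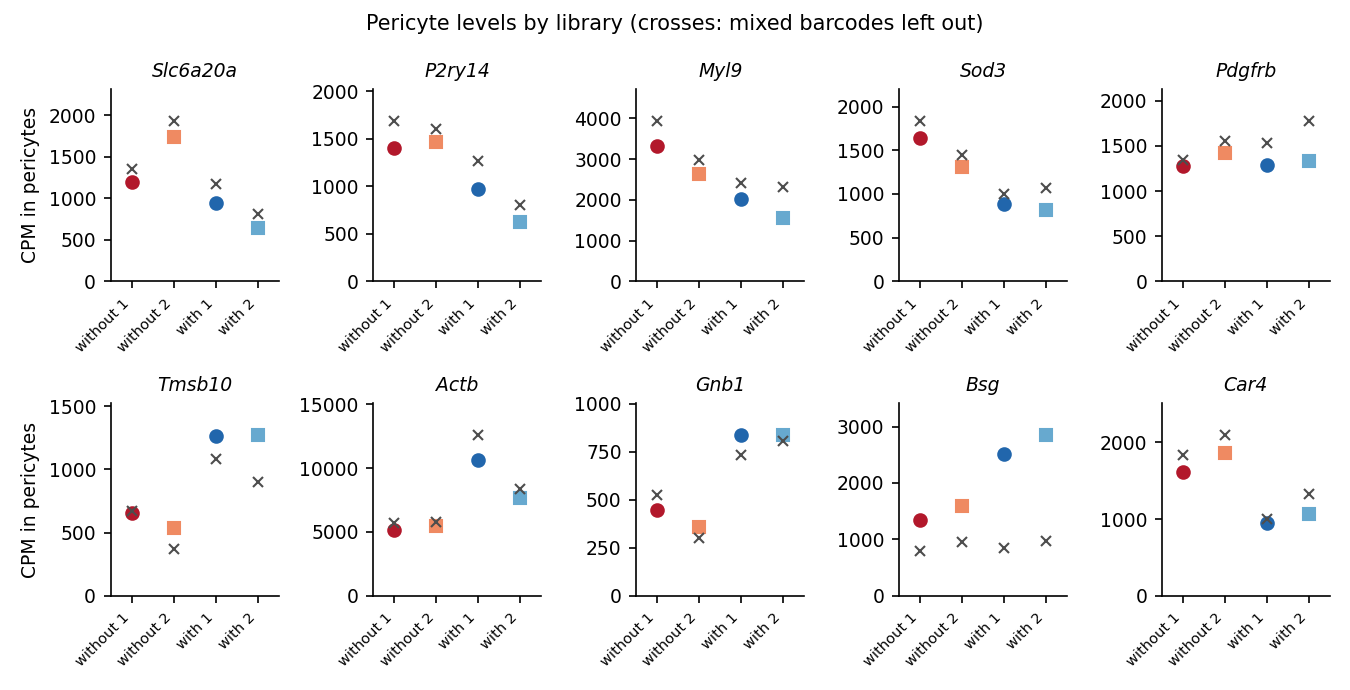
CPM of 10 named genes in the pericyte sum of each library, as filled symbols, and without the mixed barcodes, as crosses. Both libraries without inhibitors lay below both others for Tmsb10 and Actb and above them for P2ry14 and Slc6a20a, Pdgfrb stood at 1282 to 1424 CPM in all 4, and the separation of Bsg was gone in the crosses. Bsg is on a list that defined the mixed barcodes.

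The remaining response lists also held no called gene. Inflammatory genes gave 4 tested of 25 measured with a median of 0.06, led by the interferon-induced membrane proteins Ifitm1 (0.20 ± 0.29), Ifitm3 (-0.16 ± 0.30) and Ifitm2 (0.04). Il6, Cxcl10 and Cxcl2 had no UMI in any pericyte, and Nfkbia, the inhibitor of NF-kappaB, had 6, 10, 8 and 14 UMIs in the 4 libraries. Targets of BMP and TGF-beta gave 3 of 19 tested with a median of -0.09 (0.15 without the mixed barcodes, with 1 gene tested), from Tsc22d1 (-0.09 ± 0.31), Id3 (0.14 ± 0.40) and Id1 (-0.26 ± 0.62). The inhibitory Smad6 had 2 UMIs in all and Smad7 had 6. Heat shock genes gave 8 of 15 tested with a median of 0.11 (-0.01 without the mixed barcodes), led by the constitutive chaperones Hspa8 (-0.12 ± 0.27), Hsp90ab1 (0.16 ± 0.30) and Hspb1 (0.05 ± 0.30). Genes of the clock and the glucocorticoid response gave 5 of 18 tested with a median of 0.00 (0.51 without the mixed barcodes, with 1 gene tested), among them the metallothioneins Mt1 (0.41 ± 0.30) and Mt2 (0.34 ± 0.40) and the glucocorticoid target Tsc22d3 (-0.73 ± 0.41). Txnip had 2, 3, 2 and 2 UMIs.

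Immediate early genes were sparse in pericytes. The list of 36 genes summed to 518 UMIs, 19 genes had at most 10 UMIs and 5 had none, and the leading 4 genes gave 44.8% of the UMIs. Per 1000 UMIs of the pericyte sum the list gave 2.30 and 3.03 UMIs without and 2.82 and 3.09 UMIs with inhibitors, so that the groups overlapped. In microglia of the same libraries it gave 12.2 and 8.87 without and 3.79 and 3.44 with inhibitors, and in smooth muscle cells 12.9 and 6.63 against 3.10 and 3.18. Endothelial cells gave 8.20 and 6.65 without and 8.63 and 8.57 with inhibitors. The level of pericytes without inhibitors thus lay below that of smooth muscle cells, endothelial cells and microglia of the same libraries. Klf2 alone gave 1651 of the 4401 and 2088 of the 6470 endothelial list UMIs without inhibitors. With inhibitors it gave 2233 of 6111 and 2961 of 9027. Without the mixed barcodes pericytes gave 1.95 and 1.98 UMIs without and 2.91 and 2.26 with inhibitors.

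After each pericyte was thinned to 1000 UMIs, which kept 14 and 23 cells without and 20 and 22 cells with inhibitors, the list gave 1.86 and 2.57 UMIs per cell without and 3.25 and 2.59 with inhibitors. The difference was -0.709 UMIs per cell (exact two-sided permutation p = 0.33, again the smallest possible), and it was -0.202 without the mixed barcodes (exact permutation p = 1). Thinned to 500 UMIs, which kept every cell, the difference was -0.153 UMIs per cell (exact permutation p = 0.67), and unthinned it was -0.295 per 1000 UMIs. Without the mixed barcodes the unthinned difference was larger in size, at -0.621 per 1000 UMIs (exact permutation p = 0.33). In the test across genes, 4 of the 36 could be tested in pericytes and 0 were called (median -0.20). These were the AP-1 member Jund (-0.19 ± 0.39), the small GTPase Rhob (-0.28 ± 0.38), the RNA-binding protein Zfp36l1 (0.30 ± 0.44) and the shear-responsive factor Klf2 (-0.20 ± 0.51). In microglia the same test on their own sums called 36 of 8964 genes higher without inhibitors (0.402%), with 10 of 26 immediate early genes among them.

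**Figure D4:**
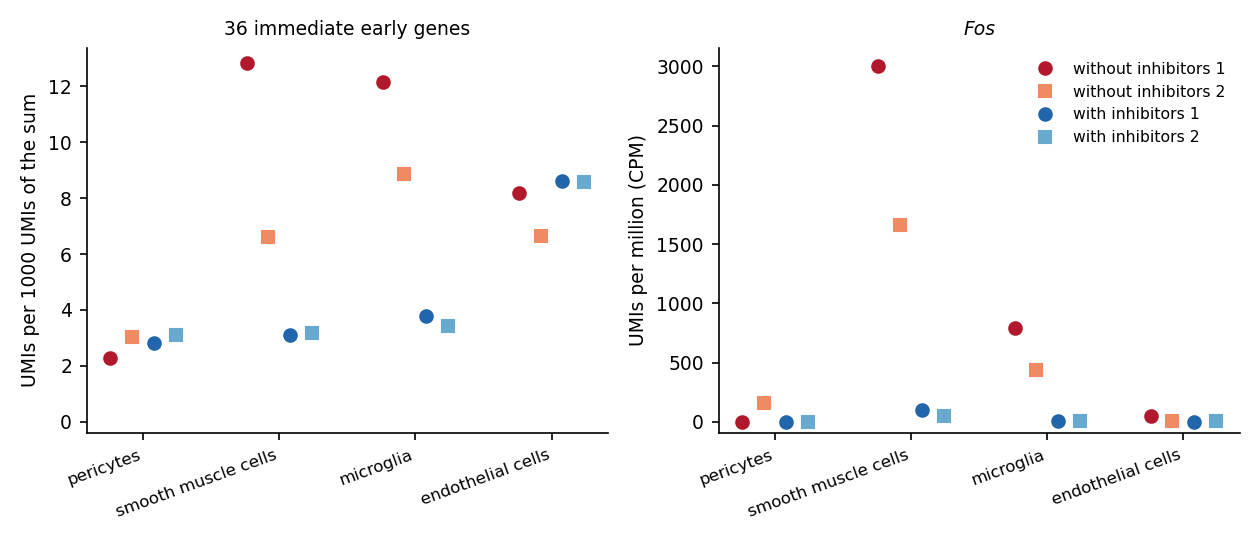
UMIs of 36 immediate early genes per 1000 UMIs (left) and CPM of Fos (right) in the sums of 4 cell classes, with a point per library. Pericytes lay between 2.30 and 3.09 in all 4 libraries for the list, while microglia stood at 12.2 and 8.87 without and 3.79 and 3.44 with inhibitors, and Fos was above 0 in the pericytes of 1 library.

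Fos, the immediate early gene most used as a sign of activation, had 8 UMIs in pericytes, all in 1 of 150 cells, in the second library without inhibitors. That barcode held 3684 UMIs, 37 of them from immediate early genes, and it was a mixed barcode with 174 UMIs of oligodendrocyte markers. None of the other 125 unmixed or 24 mixed pericytes had a Fos UMI. The limit that a count of 0 allows (3 counts per group) is 43.0 CPM in the 64 unmixed pericytes without inhibitors and 46.1 CPM in the 61 with inhibitors, and it covers counting error only. Fos stood at 3007 and 1658 CPM without and 101 and 45.4 CPM with inhibitors in smooth muscle cells, and at 795 and 433 CPM without and 4.68 and 2.40 CPM with inhibitors in microglia. The smooth muscle values without inhibitors rest on 8 and 13 cells. In endothelial cells Fos stood at 48.5 and 10.3 CPM without and 0 and 5.69 CPM with inhibitors, so a low Fos level was not particular to pericytes. The limit of the 64 unmixed pericytes without inhibitors was below the Fos level of smooth muscle cells and microglia in the same libraries. It was not below both endothelial values. Mixed barcodes were defined after the values were seen and include the barcode with Fos. In all pericytes without inhibitors Fos stood at 0 and 158 CPM. Fos had a UMI in 75.0% and 30.8% of smooth muscle cells without inhibitors.

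Other members of the list showed the same sparseness. Jun had 1 and 8 UMIs without and 4 and 1 with inhibitors, 10 of all 14 in mixed barcodes and 5 in the barcode that held Fos, and its partner Junb had 1 and 4 against 2 and 4. The phosphatase Dusp1 had 1 and 13 against 4 and 4 UMIs, with 6 of the 13 in the barcode that held Fos. Egr1 had 1 and 2 against 0 and 1, Ier2 had 1 and 6 against 6 and 4, the RNA-decay factor Zfp36 had 1 and 0 against 4 and 2, and Klf4 had 3 and 3 against 1 and 6. Atf3 had no UMI in any pericyte. Socs3, which is not on this list, had 1 and 1 against 1 and 0.

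For comparison with lists that the study made, 0 of 19 genes of its list from all cells of these libraries passed the filter in pericytes, where the whole list summed to 13 and 50 UMIs without and 28 and 36 UMIs with inhibitors. That list was chosen on these samples and is not independent evidence of a direction. Of 25 consensus activation genes from sorted microglia, 5 were tested and 0 called (median -0.19).

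Whether the inhibitor effect differed between pericytes and another class of the same animals was tested as an interaction, with the animal as a block. A value below 0 means a smaller log2 fold change in pericytes. Against microglia, 8 of 8840 genes were called at an adjusted p under 0.05 (0.0905%), 6 of them below 0 (0.0679%). Of 25 immediate early genes tested, 23 lay below 0 and 3 were called, with a median interaction of -1.82 against -0.13 over all genes. A gene could enter this test on its microglial UMIs alone, and 4 of the 36 list genes passed the filter in pericytes by themselves. The 23 of 25 and the median therefore largely restate the microglial difference given above and are no separate evidence on pericytes.

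Hspa1a, the inducible heat shock chaperone, had the largest interaction of the called genes. It had 2 and 2 UMIs without and 4 and 4 with inhibitors in pericytes, or 59.6 and 39.5 against 90.2 and 75.9 CPM. In microglia it had 376 and 330 against 6 and 6 UMIs, or 324 and 231 against 5.62 and 4.79 CPM. The interaction was -6.57 ± 1.11 (edgeR adjusted p = 3.31e-05), it was called in 9 of 9 settings, and it rests on 12 pericyte UMIs. Jund had 9 and 23 against 23 and 18 UMIs in pericytes, and 1412 and 1203 against 253 and 318 in microglia (interaction -2.32 ± 0.49, edgeR adjusted p = 0.0035). Dusp1, with the pericyte UMIs given above, had 408 and 352 UMIs without and 12 and 4 UMIs with inhibitors in microglia (interaction -4.50 ± 0.95, edgeR adjusted p = 0.0035). Hspa1a and Dusp1 did not pass the filter on low counts in pericytes by themselves and entered this test on their microglial UMIs. The calls of Hspa1a and Dusp1 therefore largely restate the microglial difference. The interaction of Jund was -2.72 and that of Dusp1 -5.38 without the mixed barcodes, and both were still called. Both calls were lost without the first library without inhibitors. That of Jund was also lost without the first library with inhibitors, and that of Dusp1 without the second. Klf2 had 12 and 6 against 7 and 17 UMIs in pericytes and 664 and 413 against 50 and 57 in microglia (interaction -3.47 ± 0.61, edgeR adjusted p = 4.80e-05), a call that was lost without the mixed barcodes and without the second library with inhibitors. Of the 42 Klf2 UMIs in pericytes, 38 lay in mixed barcodes.

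Further called genes followed single libraries. Hba-a1 and Hbb-bs, the haemoglobin chains, had 9992 and 16528 UMIs in the microglia of the second library without inhibitors and at most 303 in those of any other library. Cnp (3.11 ± 0.75), an enzyme of myelin, had 30 UMIs in the pericytes of that library and at most 2 UMIs in those of any other, and it was not called without the mixed barcodes.

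The sequences before the starts of Hspa1a and Dusp1 are shown because these were the genes outside haemoglobin with the largest interaction that was called with and without mixed barcodes, a choice made after the values were seen. They are the 250 bases before the RefSeq gene start on GRCm38.p6, written 5′ to 3′ on the gene's strand, which is the minus strand for both. Hspa1a lies at chr17:34969359-34972156 and its window at chr17:34972157-34972406. Dusp1 lies at chr17:26505591-26508472 and its window at chr17:26508473-26508722. Capitals mark matches, on either strand, to the heat shock motif GAANNTTC or to the cAMP response motif TGACGTCA, and the serum response CArG box was searched too.
Hspa1a: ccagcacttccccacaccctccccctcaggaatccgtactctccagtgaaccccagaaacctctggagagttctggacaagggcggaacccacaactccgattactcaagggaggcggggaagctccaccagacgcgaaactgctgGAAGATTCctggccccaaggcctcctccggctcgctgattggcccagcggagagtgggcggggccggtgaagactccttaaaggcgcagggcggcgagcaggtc
Dusp1: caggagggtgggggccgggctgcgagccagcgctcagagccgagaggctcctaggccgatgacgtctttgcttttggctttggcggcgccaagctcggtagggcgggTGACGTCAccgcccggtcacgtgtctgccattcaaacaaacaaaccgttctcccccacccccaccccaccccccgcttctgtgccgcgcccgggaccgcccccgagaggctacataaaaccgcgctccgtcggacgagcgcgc
The Hspa1a window held 1 GAANNTTC, starting 104 bases before the gene, and no match to the other motifs. The Dusp1 window held 1 TGACGTCA, starting 143 bases before the gene, and no match to the others. Of 32851 promoter windows, 6.69% held GAANNTTC, 1.55% held TGACGTCA and 1.47% held the CArG box. A match describes letters only, and both genes entered the interaction test on their microglial UMIs.

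Against endothelial cells, 1 of 6214 genes was called (0.0161%), and 241 had an unadjusted p under 0.05. It was C1qc, a complement gene of microglia, with 3, 2, 1 and 54 pericyte UMIs in the 4 libraries (interaction -3.19 ± 0.66, edgeR adjusted p = 0.012). The 54 UMIs lay in the library whose mixed barcodes held the microglial markers, and without the mixed barcodes the interaction turned to 1.06 ± 1.27. No gene was called without the mixed barcodes or without that library. C1qc was also not called without either library without inhibitors. Of 25 immediate early genes 0 were called against endothelial cells, with a median interaction of -0.13 against -0.10 over all genes. An unequal response of these genes in the neighbouring capillary cell types was thus not detectable.

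Against smooth muscle cells the design's minimum of 20 cells per library was not met, since there were 8 and 13 such cells without and 13 and 10 with inhibitors, and the following values were computed in addition. Of 654 genes, 4 were called (0.612%). Btg2, an immediate early gene that slows cell division, had 3 and 5 against 7 and 12 UMIs in pericytes and 34 and 23 against 7 and 2 UMIs in smooth muscle cells (interaction -3.67 ± 0.80, edgeR adjusted p = 0.0021), a call lost without the mixed barcodes, without a filter on low counts, and without the first library without or the second library with inhibitors. Ptn, the growth factor pleiotrophin, had 232 and 416 against 305 and 262 UMIs in pericytes, and 0 and 4 against 67 and 9 in smooth muscle cells (4.32 ± 0.68, edgeR adjusted p = 0.0002), and its call was lost without the first library with inhibitors. Ifitm1 (4.22 ± 1.01) had the same direction and was called in 5 of 9 settings, with UMIs of 0 and 1 against 12 and 7 UMIs in smooth muscle cells. Vtn, the leading pericyte gene, moved with both in the smooth muscle cells, at 518 and 650 CPM without and 1717 and 1817 CPM with inhibitors. Its part in the result was not tested.

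**Figure D5:**
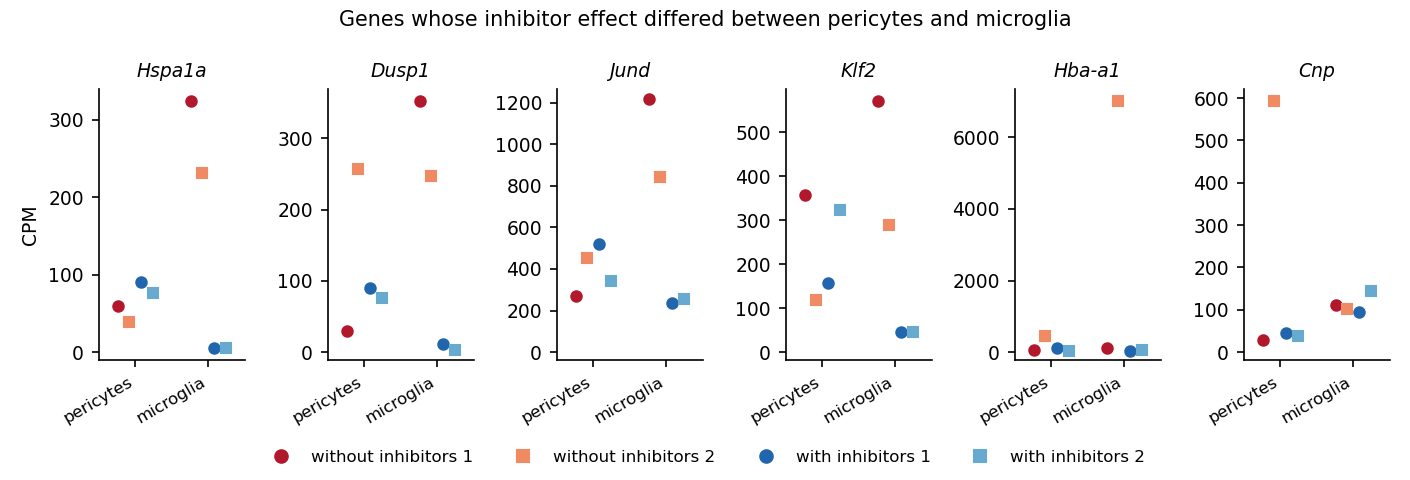
CPM of 6 of the genes whose inhibitor effect differed between pericytes and microglia, in the sums of both classes, with a point per library. Hspa1a stood at 39.5 to 90.2 CPM in all pericyte sums and at 324 and 231 CPM without against 5.62 and 4.79 CPM with inhibitors in microglia, and Hba-a1 in microglia was high in 1 library.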

How the data were processed

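Libraries were made with 10x chemistry from whole brains, 1 per animal. The authors deposited raw UMI counts per gene and barcode, made with Cell Ranger 3.0.0 on mm10 and restricted to barcodes called as cells. Their later cell filter was not applied to these files. The 4 matrices held 12487 barcodes and 31053 genes, with 5134359 to 7529804 UMIs per library. The members, gene lists and named genes were chosen with earlier results of these data known.

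Cells needed at least 400 genes and at most 20% mitochondrial UMIs. Doublets were scored but kept. Comparison classes were picked by marker genes in the same way, with at least 3 of 4 markers for smooth muscle and endothelial cells and 3 of 6 for microglia. Counts were summed per animal and class and tested by the robust quasi-likelihood F test of edgeR 4.0.16 (R 4.3.3), after filterByExpr and TMM normalization, with Benjamini-Hochberg adjustment over all genes tested. The model held the group alone for pericytes, and animal, class and class by group for interactions. Calls in pericytes needed an adjusted p under 0.05 and a log2 fold change over 0.58 in size. DESeq2 1.42.0 was an alternative. Genes of the selection rule were not tested. CPM are counts over the class sum. Replicate numbers only name animals. The steps were tested on simulated data. Named genes were those called, the 3 highest of each list, a fixed set of marker and early response genes, and 10 genes with the highest ratio over endothelial cells. Further genes were named after their values were seen, and the text says so. A few genes that these rules name are not reported here.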

Additional observations from a re-analysis of the deposited data

Results flagged for a closer look

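The inhibitor effect differed between pericytes and another cell class for the genes given here, each by an edgeR interaction test with Benjamini-Hochberg adjustment. Values are the effect in pericytes minus that in the other class, on the log2 scale. Against microglia, Hspa1a differed by -6.57, Dusp1 by -4.50, Klf2 by -3.47 and Jund by -2.32, on 12, 22, 42 and 73 pericyte UMIs over the 4 libraries. Hspa1a and Dusp1 entered the test on their microglial UMIs, so their calls largely restate the microglial difference. The calls of Dusp1, Klf2 and Jund were each lost in at least 1 setting that left out a library. Of the 42 Klf2 UMIs 38 lay in mixed barcodes, and Klf2 and Hbb-bs were not called without them. The haemoglobin genes Hba-a1 (-4.77) and Hbb-bs (-3.76) rested on the microglia of 1 library without inhibitors, where 18.2% of cells held a Hba-a1 UMI and the same library gave 23 of the 32 Hba-a1 UMIs in pericytes. The myelin gene Cnp (3.11) was not called without the mixed barcodes.

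Against endothelial cells C1qc differed by -3.19, with 54 of its 60 pericyte UMIs in 1 library with inhibitors. Without the mixed barcodes it was not called and its sign turned (1.06 ± 1.27). Against smooth muscle cells, which numbered 8 to 13 per library, Ptn differed by 4.32, Ifitm1 by 4.22 and Btg2 by -3.67, of which Btg2 was not called without the mixed barcodes.

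Among the 2420 barcodes that failed the cell filter, 23 met the pericyte marker limits, 4 and 6 without and 6 and 7 with inhibitors. They held a median of 556 UMIs and 345 genes, and 13.2% mitochondrial UMIs. They entered no comparison.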

How the results depend on the processing

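Calls in pericytes depended on the setting. Against 0 genes higher and 0 lower, no filter on low counts gave 3 higher (Cnp and Ptgds among them) and 1 lower (C1qa), edgeR without robust estimation gave 1 higher, and leaving out 1 library gave 1 to 6 higher and 0 to 13 lower. The 6, among them Cnp, Hba-a1, Hbb-bs, Ptgds and Spp1, came without the first library without inhibitors, and the 13, among them C1qa, C1qb, C1qc, Tyrobp, Bsg and Tmsb10, without the first library with inhibitors. With the replicate number as a block 1 gene was higher. The numbers did not pair the libraries (r = 0.02 between both groups' replicate differences, across 748 genes). Genes with an effect unlike that in endothelial cells numbered 3 without robust estimation, 0 to 6 with 1 library left out and 0 without the mixed barcodes. Against microglia they numbered 4 without the mixed barcodes and 4 to 11 with 1 library left out, and against smooth muscle cells 2 to 7. Of 230 alternatives for single genes, 223 kept direction and side of the threshold and 4 passed it. Cryab reversed in the other 3, to -0.83 with doublets removed, -1.21 with at most 1 endothelial and no glial gene, and -0.73 without the mixed barcodes. Since the main fit called no gene in pericytes, keeping the side of the threshold meant staying uncalled. Of 168 list medians, 156 moved by less than 1 SD over the genes. Without the mixed barcodes the medians were 0.11 for transporters, 0.17 for matrix, 0.09 for mitochondrial, -0.18 for contractile, 0.75 for Notch, 0.03 for inflammatory and -0.53 for immediate early genes. These medians rest on 5, 8, 3, 6, 3, 3 and 2 tested genes in that order. Exact tests of 2 against 2 animals cannot pass the threshold, so the share of pericytes and the thinned early gene level could not be called under any setting. The mixed barcode alternatives and the smooth muscle interaction were chosen after seeing the data.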
